A study of Saccharomyces cerevisiae SK1 with 6 samples.

Results

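The meiotic double-strand break machinery of budding yeast is described here through 10 genes, picked by their names for their known role, out of the 7071 annotated features listed in each count file. They are SPO11, REC102, REC104, SKI8, REC114, MEI4, REC107 (also called MER2), MRE11, RAD50 and XRS2, matched by their systematic names. The list was chosen with earlier results of these data known. All 10 names were listed in every library. Of these, 6 had at least 10 counts over the 6 libraries together and were tested between the strains, and the other 4 were listed at almost no counts in both strains.

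The study compared *ime4∆* cells (SAy966, with both IME4 and NDT80 deleted) with cells it calls wild type (SAy841, with NDT80 deleted alone), both in the SK1 background, in 3 libraries each. Both strains thus lack NDT80, which encodes the transcription factor needed to leave meiotic prophase, and differ by the deletion of IME4, which encodes the methyltransferase that places m6A on meiotic mRNA. Cells were taken after 5 h in SPO, an acetate medium that induces meiosis, and their polyA(+) RNA was read directly on nanopores, so that each read comes from one RNA molecule. Libraries held between 177675 and 341692 counts on features in *ime4∆* and between 182876 and 372270 in wild type, and levels are given as CPM (counts scaled to a common library size by TMM factors). A floor of 3 counts per library, under which no level is read, lay at 8.65 to 17.2 CPM.

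In meiosis the cell breaks its own chromosomes so that homologous chromosomes can pair and exchange DNA. Spo11, a protein related to the catalytic subunit of an archaeal topoisomerase, cuts both strands and stays bound to the ends. It works in a core complex with Ski8, Rec102 and Rec104. Rec114, Mei4 and Mer2 bind along the chromosome axis and activate the core complex, and Mer2 is phosphorylated by the kinases that drive DNA replication. Mre11, Rad50 and Xrs2 form the MRX complex, which in budding yeast is needed both to make the breaks and to trim their ends. SPO11, REC102, REC104, REC114 and MEI4 act in meiosis, whereas the MRX genes and SKI8 also work in growing cells.

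Many early meiotic genes carry a URS1 site upstream, which the repressor Ume6 binds during growth and through which the same genes are switched on by Ime1 in meiosis. The core of this site, GGCGGC, was searched on both strands from 250 bases before to 50 bases after the start codon in the RefSeq genome of the reference strain S288C (assembly R64), which is not the SK1 strain that was sequenced. Among the 10 genes, REC104, REC114 and MEI4 held 1 match each, which began 91, 92 and 96 bases before the start codon, and 308 of 6001 coding genes (5.13%) held a match in the same window. The matches are shown in windows of 30 bases, on the coding strand with the core in capitals, because they are the upstream sequence that these members have in common.
REC104 (chromosome VIII): cgcacaatatttGGCGGCtattttccgcta
REC114 (chromosome XIII): cgttacaaggtgGGCGGCtaacttataaaa
MEI4 (chromosome V): tatatattgctgGGCGGCtaaatgtttccg
In all 3 windows the core is followed by the bases TA, and the match describes the letters of the reference strain only. The full form of the URS1 site, longer than the core, was searched as well. Each of the 10 members held 0 matches to it, beside 25 of 6001 coding genes (0.417%) with a match. The 3 windows thus hold the core but not the full site, and whether Ume6 binds there was not tested. In these libraries the 3 genes had unlike values, since REC104 had almost no counts, REC114 was lower in *ime4∆* and MEI4 was tested and not called.

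The names of the features have to be read with care, because a name in the count files may not stand on the transcripts of that gene. This may hold for many of the names. The genome build and annotation behind the files are not given in the sources used here, so that no coordinates are printed. Of the 7071 listed names, 6006 were found in R64. As a check, 150 genes abundant in any yeast cell, 138 of them for ribosomal proteins, were looked up. The median of their percentiles by mean CPM was 46.3, only 5 stood at or above the 90th percentile and 21 had 0 counts in all 6 libraries. On the chromosomes that hold members, this median ran from 36.2 on chromosome XII to 59.4 on chromosome VIII. XRS2 stood at the 98.9th percentile, and none of the 150 genes had a higher mean CPM. SPO11 stood at the 92.5th percentile, with 3 of the 150 above it. The abundant gene nearest to SPO11, RPS20, had 0 counts, and those nearest to RAD50 and XRS2, RPL18B and RPP2B, had 229 and 122 counts in all. IME4 was listed at no more than 1 count in any library, and so the deletion itself could not be checked. The values below therefore belong to the rows that carry these names, and whether each row holds the transcripts of its gene was not tested.

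SPO11 and REC102, the members of the core complex with enough counts, were both lower in *ime4∆*. SPO11 (YHL022C, chromosome VIII) had 66, 54 and 69 counts in *ime4∆* replicates 1, 2 and 3, against 204, 101 and 158 in wild type. On the CPM scale these were 297, 291 and 199 CPM in *ime4∆* and 604, 579 and 546 CPM in wild type. Every *ime4∆* library lay below every wild-type library. The mean level was 262 ± 55.0 CPM in *ime4∆* and 576 ± 28.8 CPM in wild type (SD, n = 3 each), a ratio of 0.455, and the log2 fold change, here always *ime4∆* over wild type, came to -1.17 (standard error 0.17, adjusted p = 0.000206 in edgeR's quasi-likelihood test). This was the second largest change among the tested members.

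REC102 (YLR329W, chromosome XII), which together with Rec104 tethers Spo11 to the other break proteins, had 8, 3 and 12 counts in *ime4∆* and 46, 20 and 23 in wild type. Its levels were 36.0, 16.2 and 34.6 CPM in *ime4∆* and 136, 115 and 79.5 CPM in wild type, and the strains did not overlap. In *ime4∆* replicate 2 it stood exactly at the floor of 3 counts. The mean was 28.9 ± 11.1 CPM in *ime4∆* and 110.1 ± 28.6 CPM in wild type (SD, n = 3 each), and the log2 fold change was -1.85 (standard error 0.35, edgeR adjusted p = 0.00146). The gene entered the test only through its wild-type level, since the filter asked for 38.05 CPM in 3 libraries, which 3 wild-type libraries and 0 *ime4∆* libraries reached. Its call therefore adds little beyond its levels.

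REC104 (YHR157W, chromosome VIII) was listed at 0, 1 and 3 counts in *ime4∆* and 0, 1 and 0 in wild type. SKI8 (YGL213C, chromosome VII), which encodes a repeat protein shared between the core complex and the cytoplasmic Ski complex of mRNA decay, had 0 counts in every *ime4∆* library and 0, 1 and 0 in wild type. Neither gene was tested. No difference was detectable at this depth, and the counts do not show that the transcripts were absent.

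Of the axis-bound group, REC114 was lower in *ime4∆*, MEI4 was not called and REC107 was hardly counted. REC114 (YMR133W, chromosome XIII) had 55, 56 and 97 counts in *ime4∆* and 194, 102 and 128 in wild type. Scaled, these were 248, 302 and 280 CPM in *ime4∆* and 574, 585 and 443 CPM in wild type, with no overlap. The mean was 276 ± 27.0 CPM in *ime4∆* and 534 ± 79.2 CPM in wild type (SD, n = 3 each), a ratio of 0.518, and the log2 fold change was -0.94 (standard error 0.16, edgeR adjusted p = 0.000717).

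MEI4 (YER044C-A, chromosome V), whose product binds Rec114 directly, had 16, 11 and 23 counts in *ime4∆* and 19, 9 and 18 in wild type. Its levels were 72.1, 59.2 and 66.3 CPM in *ime4∆* and 56.2, 51.6 and 62.2 CPM in wild type, so that the ranges overlapped. The means, 65.9 ± 6.44 CPM in *ime4∆* and 56.7 ± 5.34 CPM in wild type (SD, n = 3 each), gave a log2 fold change of 0.21 (standard error 0.29, edgeR adjusted p = 0.650). With no more than 23 counts in a library, a moderate change in either direction could have gone undetected. REC107 (YJR021C, chromosome X) had 0 counts in all 3 *ime4∆* libraries and 1, 0 and 0 in wild type, and was not tested.

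Within the MRX complex, RAD50 and XRS2 were lower in *ime4∆* and MRE11 was hardly counted. RAD50 (YNL250W, chromosome XIV), which encodes the ATPase that holds DNA ends together, had 109, 68 and 146 counts in *ime4∆* and 390, 120 and 212 in wild type. Its levels were 491, 366 and 421 CPM in *ime4∆* and 1154, 688 and 733 CPM in wild type. Wild-type replicate 1 stood well above the other 2 wild-type libraries, and all 3 wild-type libraries lay above all *ime4∆* libraries. The mean was 426 ± 62.6 CPM in *ime4∆* and 858 ± 257 CPM in wild type (SD, n = 3 each), and the log2 fold change was -1.02 (standard error 0.20, edgeR adjusted p = 0.00166). Without wild-type replicate 1 it was -0.74 and the gene was still called.

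XRS2 (YDR369C, chromosome IV), whose product brings the complex to the nucleus and binds the checkpoint kinase Tel1, was the most abundant member, with 290, 210 and 337 counts in *ime4∆* and 711, 324 and 523 in wild type. Its levels were 1307, 1131 and 972 CPM in *ime4∆* and 2104, 1857 and 1808 CPM in wild type, again without overlap. The mean was 1136 ± 168 CPM in *ime4∆* and 1923 ± 159 CPM in wild type (SD, n = 3 each), a ratio of 0.591, and the log2 fold change was -0.76 (standard error 0.15, edgeR adjusted p = 0.00196). MRE11 (YMR224C, chromosome XIII), the nuclease of the complex, had 1, 1 and 1 counts in *ime4∆* and 0, 0 and 1 in wild type. The subunits of one complex were thus listed at 4 counts for MRE11 and 2395 for XRS2 over the 6 libraries.

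**Figure D1:**
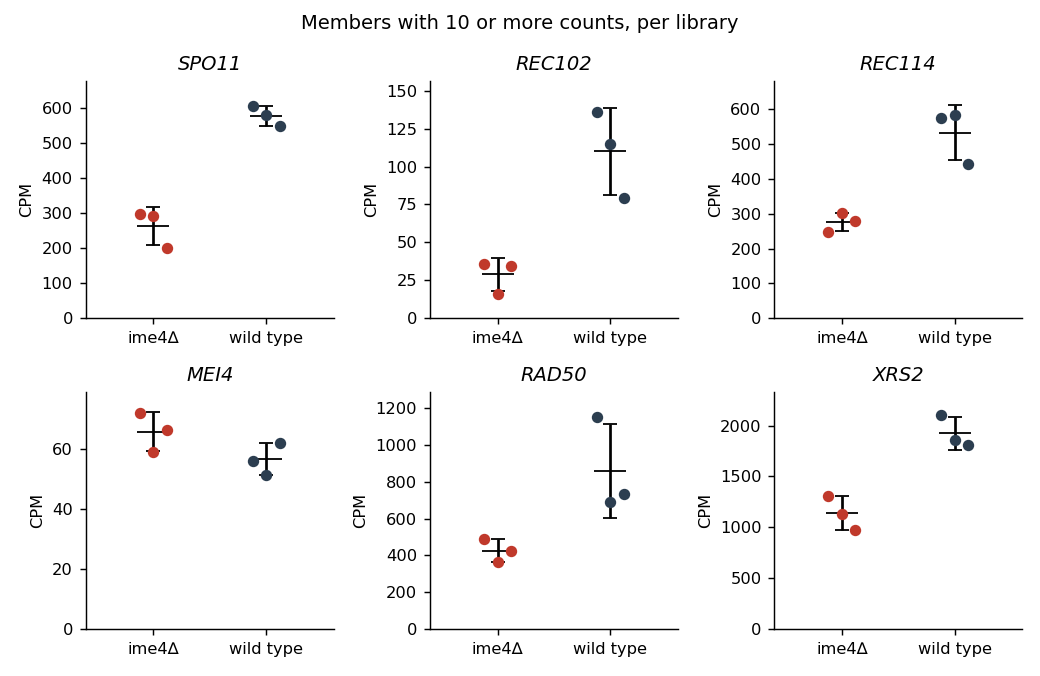
CPM (TMM-scaled counts) of the 6 members with at least 10 counts, 1 panel per gene with its own axis from 0, 1 point per library, horizontal line for the mean and bars for the SD of 3 libraries. In SPO11, REC102, REC114, RAD50 and XRS2 the 3 *ime4∆* points lie below the 3 wild-type points, and in MEI4 they overlap.

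Across the machinery, 5 of the 6 tested members were lower in *ime4∆* at an adjusted p under 0.05 and 0 were higher, also at an unadjusted p under 0.05 and with DESeq2. Without REC102, which the filter admitted through its wild-type level alone, 4 of 5 were lower. Of all 3231 features tested, 385 (11.9%) were called lower, 399 (12.3%) higher and 784 (24.3%) in either direction. Because the members were chosen with earlier results of these data known, they are not an independent set to hold against these shares. The strains did not overlap in the same 5 members, all lower in *ime4∆*, beside 19.3% of all tested features that were lower and 19.6% that were higher without overlap. The median log2 fold change was -0.98 over the 6 tested members, -0.94 without REC102 and 0.02 over all tested features. Of the tested features, 2.54% had a lower log2 fold change than SPO11, 3.96% than RAD50, 4.83% than REC114 and 7.99% than XRS2, against 64.8% that lay below MEI4. In bulk RNA, fewer cells at the stage that transcribes these genes and less RNA per cell cannot be told apart.

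**Figure D2:**
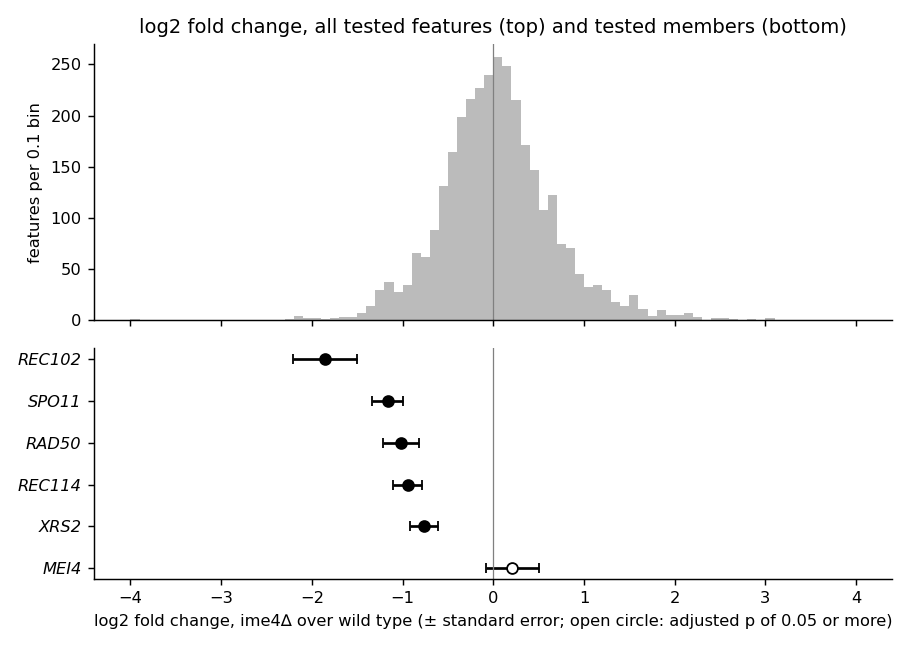
Top, histogram of the log2 fold change (*ime4∆* over wild type) of all 3231 tested features in bins of 0.1, with values beyond the axis drawn at its ends; bottom, the 6 tested members with their standard errors, filled where the adjusted p was under 0.05. The 5 filled members lie between -1.85 and -0.76, left of the bulk of the features, and MEI4 lies at 0.21.

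Summed over the 6 counted members, the machinery took 2451, 2165 and 1972 CPM in *ime4∆* and 4628, 3874 and 3671 CPM in wild type. All *ime4∆* sums lay below all wild-type sums. XRS2 alone made up 49.3% to 53.3% of the summed counts in *ime4∆* and 45.5% to 49.2% in wild type, so that the sum mostly follows this gene and its row. MEI4 took 2.74% to 3.36% of the sum in *ime4∆* and 1.21% to 1.69% in wild type.

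Levels were compared between the genes per kilobase of gene length, because the genes range from 549 bases in REC104 to 3939 bases in RAD50. Direct RNA reads start at the polyA tail, and a longer mRNA need not give more reads, so the length scale is a convention here. Without it, RAD50 came next after XRS2 in both strains, with means of 426 CPM in *ime4∆* and 858 CPM in wild type. SPO11 had 262 and 576 CPM in the same order of strains, and REC114 had 276 and 534 CPM. The orders that follow are per kilobase. In *ime4∆* the order was XRS2, SPO11, REC114, RAD50, MEI4 and REC102, with 443, 219, 197, 108, 50.1 and 32.4 CPM per kb. In this strain the ranges of SPO11 and REC114 overlapped, and no other neighbours in the order did. In wild type the order was XRS2, SPO11, REC114, RAD50, REC102 and MEI4, with 750, 481, 380, 218, 123 and 43.1 CPM per kb, and no neighbouring ranges overlapped. The last places thus went to REC102 in *ime4∆* and to MEI4 in wild type.

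The 4 members with almost no counts were REC104, REC107, SKI8 and MRE11, with 5, 1, 1 and 4 counts over all 6 libraries. Every value of these genes was under 3 counts, except the 3 counts of REC104 in *ime4∆* replicate 3, which equal the floor of 8.65 CPM of this library. Among the listed features found in R64, 1874 of 6006 (31.2%) also had under 10 counts, beside 4 of the 10 members. R64 annotates an intron in REC107 and also in REC102, REC114 and MEI4, which were counted, and 5.30% of coding genes in R64 have an intron.

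Because names may be displaced, the nearest named gene on each side of every member was looked up, giving 20 neighbours, of which 5 had under 10 counts and 11 were tested. REC104, for example, lies between LIN1 and KEL1. LIN1 had 9, 6 and 19 counts in *ime4∆* and 29, 15 and 26 in wild type (log2 fold change -0.97, standard error 0.30, edgeR adjusted p = 0.0291). KEL1, which encodes a kelch-repeat protein of polarised growth, went the other way, with 92, 70 and 124 counts in *ime4∆* and 79, 43 and 70 in wild type (log2 fold change 0.67, standard error 0.15, edgeR adjusted p = 0.00467). Beside SPO11, NPR3, a gene of nutrient signalling to TORC1, had 343, 133 and 260 counts in *ime4∆* and 600, 225 and 334 in wild type (log2 fold change -0.50, edgeR adjusted p = 0.171). Single libraries decided this value, which was -0.95 without *ime4∆* replicate 1 (adjusted p = 0.00142), -0.29 without *ime4∆* replicate 2 (adjusted p = 0.486), -0.31 without *ime4∆* replicate 3 (adjusted p = 0.500) and -0.29 without wild-type replicate 1 (adjusted p = 0.469). NPR3 was also called lower without the filter (adjusted p = 0.0139).

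Of the 11 tested neighbours, 3 were called lower (LIN1, NMA1 and MRPL44) and 2 higher (KEL1 and AIM17). This share lies above the 24.3% of all tested features called, and the difference was not tested. AIM17, on the other side of SPO11, changed most among the called neighbours, with 58, 23 and 46 counts in *ime4∆* and 18, 14 and 22 in wild type (log2 fold change 1.32, standard error 0.32, edgeR adjusted p = 0.00674). NMA1, beside REC102 and needed to make NAD, changed by -0.66 on the log2 scale (standard error 0.16, edgeR adjusted p = 0.00639). MRPL44, a gene of the mitochondrial ribosome beside MRE11, had 26, 29 and 38 counts in *ime4∆* and 97, 32 and 45 in wild type (log2 fold change -0.77, standard error 0.25, edgeR adjusted p = 0.0368). The calls of LIN1 and MRPL44 were both lost with DESeq2 (adjusted p = 0.124 and 0.111) and without wild-type replicate 1 (adjusted p = 0.0664 and 0.276), among other settings.

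**Figure D3:**
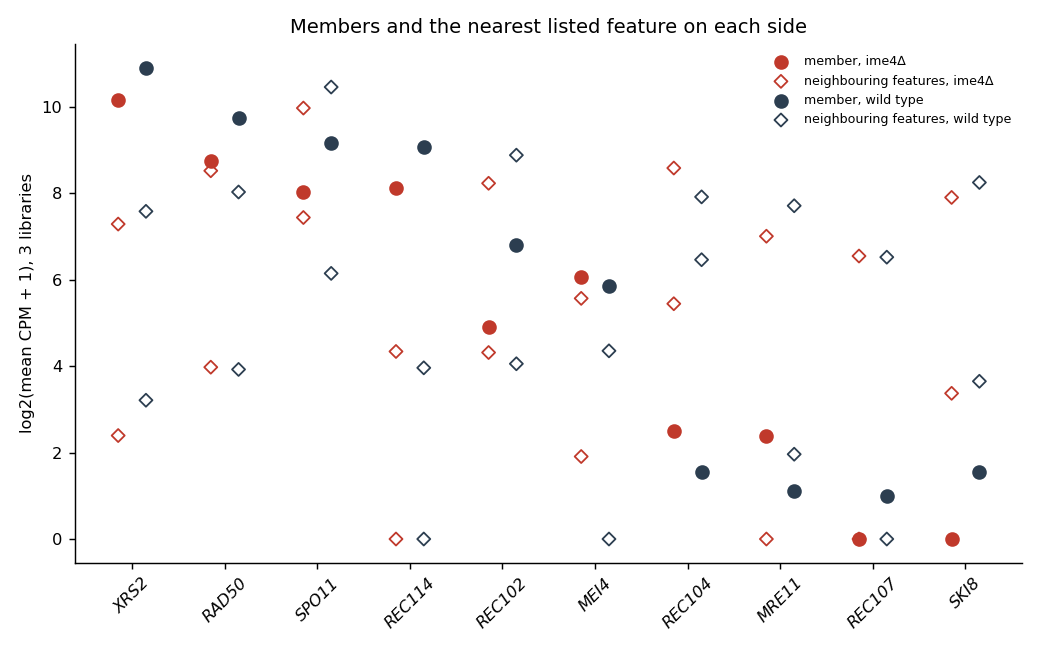
Mean level on a log2(CPM + 1) axis, 3 libraries per strain, for each member (filled circles) and its nearest listed neighbour on either side (open diamonds), *ime4∆* left of wild type within each gene. XRS2, RAD50, REC114 and MEI4 lie above both neighbours in both strains, and REC107, SKI8, REC104 and MRE11 lie near the bottom.

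The machinery was set beside 6 lists of genes that act around it, 43 genes in all, of which 29 were tested, 5 were lower in *ime4∆* and 3 were higher. These 8 calls are 27.6% of the genes tested, near the 24.3% of all tested features. Axis and checkpoint partners recruit the axis-bound group and sense breaks. All 8 were tested, 2 were lower and 1 was higher, with a median log2 fold change of -0.05. HOP1, the axis protein on which Mec1 and Tel1 signal, had 35, 23 and 38 counts in *ime4∆* and 116, 62 and 78 in wild type (log2 fold change -1.32, standard error 0.20, edgeR adjusted p = 0.00025). REC8, the meiotic cohesin subunit, changed by -0.50 on the log2 scale (standard error 0.15, edgeR adjusted p = 0.0212). RED1, the axis partner of Hop1, had -0.44 (adjusted p = 0.388), but -1.08 without *ime4∆* replicate 3 (adjusted p = 0.0549), -0.26 without *ime4∆* replicate 1 and -0.22 without *ime4∆* replicate 2. MEK1, the kinase they activate, had 0.10 (adjusted p = 0.776). SPP1, which links Mer2 to histone marks at future break sites, was higher by 0.67 (standard error 0.23, edgeR adjusted p = 0.0491), a call that was lost with DESeq2 (adjusted p = 0.146) and when any library other than *ime4∆* replicate 1 was left out. The REC8 call was lost without *ime4∆* replicate 2 or 3 or wild-type replicate 2 or 3.

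Of 5 genes for the kinases that act on Mer2, CDC28 and CLB5 were tested and 0 were called in edgeR, at an unadjusted p under 0.05 or with DESeq2. CDC28, the cyclin-dependent kinase, had a log2 fold change of 0.78 (edgeR adjusted p = 0.142), and 0.51 without *ime4∆* replicate 3 and 0.46 without wild-type replicate 1. CLB5, an S-phase cyclin, had 0.16 (adjusted p = 0.632).

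Genes for end processing and signalling numbered 10, of which 7 were tested, 1 was lower and 1 was higher, with a median log2 fold change of -0.31. TEL1, the kinase that Xrs2 binds, was higher, with 94, 88 and 174 counts in *ime4∆* and 82, 45 and 89 in wild type (log2 fold change 0.79, standard error 0.16, edgeR adjusted p = 0.00184). DDC1, a subunit of the checkpoint clamp, was lower by 0.82 on the log2 scale (standard error 0.18, edgeR adjusted p = 0.00316). SAE2, the activator of the Mre11 nuclease, had 0 counts in all 6 libraries.

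Of 11 genes for strand exchange on the broken ends, 7 were tested, 2 were lower and 1 was higher, with a median log2 fold change of -0.24. RAD57, of the Rad55-Rad57 mediator, had 120, 86 and 160 counts in *ime4∆* and 413, 170 and 273 in wild type (log2 fold change -1.11, standard error 0.16, edgeR adjusted p = 0.000161). RDH54, a partner of Dmc1, had -0.80 (standard error 0.20, edgeR adjusted p = 0.00845). SAE3, which helps to load Dmc1, was higher, with 25, 20 and 37 counts in *ime4∆* and 14, 7 and 12 in wild type (log2 fold change 1.39, standard error 0.28, edgeR adjusted p = 0.00211). DMC1, the meiotic recombinase itself, had -0.40 (adjusted p = 0.235).

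Of 5 genes for splicing of meiotic introns, on which REC107 depends through Mer1, NAM8 alone was tested (log2 fold change -0.24, edgeR adjusted p = 0.748), and the other 4 had under 10 counts. MER1 had 0, 0 and 2 counts in *ime4∆* and 0, 0 and 1 in wild type. The 4 genes of mRNA decay set beside SKI8 were SKI2, SKI3, SKI7 and XRN1. All were tested and 0 were called in edgeR or DESeq2, with 1 lower at an unadjusted p under 0.05. SKI2 had a log2 fold change of -0.50 (edgeR adjusted p = 0.0753). It was called lower without *ime4∆* replicate 1 (-0.71, adjusted p = 0.0158) and without the filter (-0.51, adjusted p = 0.0231), and had -0.24 without *ime4∆* replicate 3 (adjusted p = 0.361). The median of the 4 was -0.20.

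**Figure D4:**
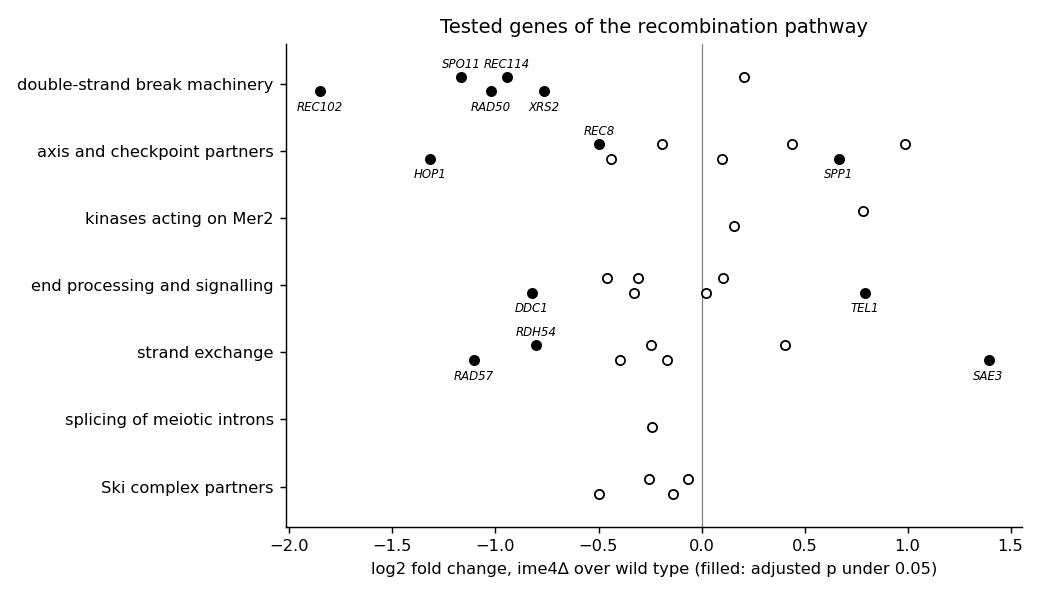
Log2 fold change (*ime4∆* over wild type) of the tested members, top row, and of the tested genes of 6 surrounding lists, 1 point per gene, filled and named where the edgeR adjusted p was under 0.05. In the top row 5 filled points lie left of 0; in the lower rows 5 filled points lie left of 0 and 3 right of it.

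Markers of cell stage and type were compared as well. Over 4 lists, 5 of 19 tested genes were called (26.3%), near the 24.3% of all tested features. Of 8 markers of early meiotic prophase, 7 were tested, 3 were lower in *ime4∆* (ZIP1, HOP1 and REC8) and 0 were higher in edgeR, at an unadjusted p under 0.05 or with DESeq2. Their summed level was 3206 to 3650 CPM in *ime4∆* and 5410 to 6241 CPM in wild type. ZIP1 and REC8 held most of it, with means of 1030 and 1704 CPM in *ime4∆* and 2514 and 2413 CPM in wild type. IME1 and IME2 were not called (log2 fold change -0.03 and 0.63, edgeR adjusted p = 0.924 and 0.178). HOP1, RED1 and REC8 also belong to the axis list above, and DMC1 to the strand exchange list. ZIP1, of the synaptonemal complex, had 254, 209 and 284 counts in *ime4∆* and 964, 442 and 624 in wild type (log2 fold change -1.30, standard error 0.17, edgeR adjusted p = 7.6e-05). Of 8 markers of middle and late sporulation, 5 were tested and SPS4 was higher (log2 fold change 1.15, edgeR adjusted p = 0.0402, but 0.146 with DESeq2 and up to 0.168 with 1 library left out). SPS4 had 45.1, 86.2 and 51.9 CPM in *ime4∆* and 20.7, 28.7 and 31.1 CPM in wild type. It entered the test through its *ime4∆* level alone, since no wild-type library reached the 38.05 CPM of the filter. This call, which is among the 5 called markers, therefore adds little beyond the levels of SPS4. The sums of the 8 markers were 614 to 703 CPM in *ime4∆* and 728 to 774 CPM in wild type, and SMK1, DIT2 and SPR1 had under 10 counts. Of 5 markers of vegetative growth and G1, 3 were tested and 0 were called in edgeR or DESeq2, with 1 in each direction at an unadjusted p under 0.05. Their sums overlapped, at 1540 to 1744 CPM in *ime4∆* and 1427 to 1770 CPM in wild type, and CLN1 had 0 counts in every library. Of 6 haploid-specific genes, 4 were tested and STE2, a pheromone receptor gene, was lower, with 69, 50 and 104 counts in *ime4∆* and 238, 115 and 179 in wild type (log2 fold change -1.17, standard error 0.15, edgeR adjusted p = 7e-05). Their sums were 771 to 816 CPM in *ime4∆* and 1137 to 1213 CPM in wild type. This difference mostly follows STE2, with a mean of 293 CPM in *ime4∆* and 661 CPM in wild type. The other tested genes, MFA1 (log2 fold change -0.26), GPA1 (-0.16) and MF(ALPHA)1 (0.58), were not called. The part of the lower early prophase and haploid-specific sums in the lower levels of the break genes was not tested.

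Ime4 methylates adenine that most often stands in GGAC or AGAC, and these were counted on the coding strand of the coding sequences of R64. The median over all coding genes was 6.08 matches per kb. The lower members ranged from 3.77 per kb in REC102, at the 16.9th percentile, over 4.68 in XRS2, 5.85 in SPO11 and 7.62 in RAD50 to 7.77 in REC114. MEI4, which was not called, had 4.08 per kb. Members with almost no counts ranged from 5.86 per kb in SKI8, below the median, over 8.18 in MRE11 and 10.9 in REC104 to 13.8 in REC107. A match is not a methylated site, and no modification was measured here.

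The levels and calls of the members changed little between ways of processing the counts. SPO11, REC102, REC114, RAD50 and XRS2 were called lower in every alternative in which they were tested, with adjusted p-values of at most 0.0179. For REC102, which the filter admitted through its wild-type level alone, these calls add little beyond its levels. REC102 and MEI4 could not be tested where every library had to hold 10 counts, nor REC102 after downsampling. MEI4 was never called, with adjusted p-values between 0.344 and 0.837.

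**Figure D5:**
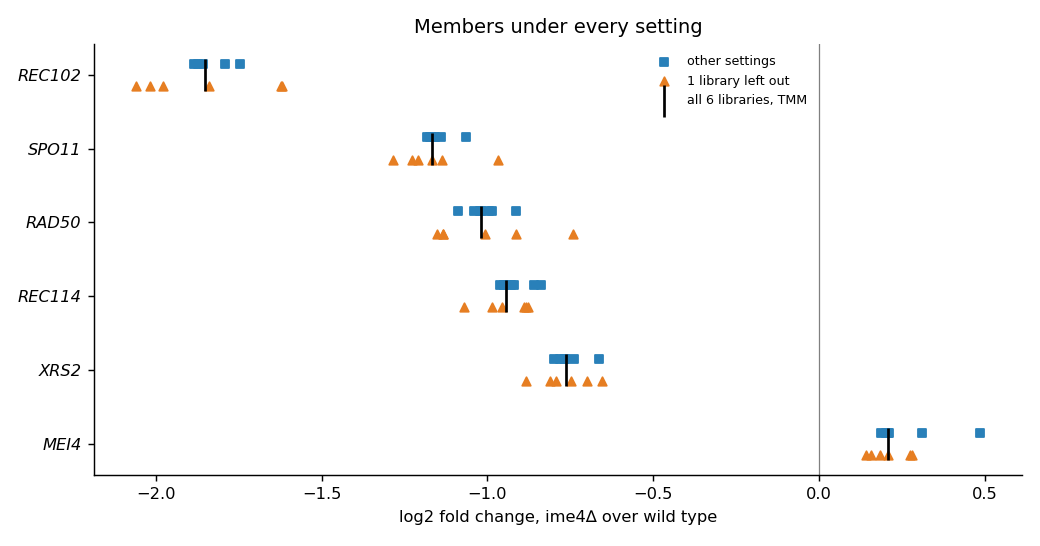
Log2 fold change (*ime4∆* over wild type) of the 6 tested members with all 6 libraries and TMM scaling (black lines), under the other settings (blue squares) and with 1 library left out (orange triangles). The 5 called members stay left of 0 throughout, SPO11 between -1.29 and -0.97 with 1 library left out, and MEI4 stays right of 0.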

How the data were processed

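PolyA(+) RNA of 3 *ime4∆* and 3 wild-type cultures was read by direct RNA sequencing. The authors deposited, for each library, whole-number read counts per feature, neither normalized nor pooled. The submitters' processing notes name minimap2 and HTSeq; build, annotation, counting settings and use of strand are not given in the sources used here, so overlapping and antisense genes cannot be told apart. Between 12.9% and 17.9% of reads were ambiguous and 8.2% to 9.6% fell on no feature, and both stayed out.

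The test was the quasi-likelihood test of edgeR 4.0.16 under R 4.3.3 (TMM, filterByExpr, Benjamini-Hochberg over 3231 features, threshold 0.05), ignoring replicate numbers. The standard error is the size of the log2 fold change over the square root of F. Alternatives were DESeq2 1.42.0, RLE scaling, scaling by library size alone, dropping the filter, requiring 10 counts in each library, downsampling, a replicate block and leaving out each library; the code was tested on simulated data. Names, neighbours, lengths and sequences came from RefSeq R64. Genes named are the 10 members, their neighbours, 7 pathway genes in any case and the 2 called genes with the largest change per pathway list and direction; CDC28, CLB5, NAM8, SKI2 and the marker genes were named after their values were seen. A gene of the strand exchange list is not reported here. Members and lists were chosen with earlier results of these data known. Floors of 3 counts cover counting error only.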

Additional observations from a re-analysis of the deposited data

How the results depend on the processing

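The number of features called moved by more than 1.5 times in DESeq2, which called 504 (260 lower and 244 higher in *ime4∆*) instead of 784. Leaving out 1 library gave 558 to 782. Library size alone called 300 lower and 495 higher instead of 385 and 399, and the median log2 fold change of all features was 0.12 instead of 0.02. The number of members called was 5 in every alternative, except 4 with a minimum of 10 counts and after downsampling, where REC102 was untested. The 5 include REC102, which the filter admitted through its wild-type level alone. With 1 library left out the log2 fold change was -2.06 to -1.62 for REC102, -1.07 to -0.88 for REC114, -1.15 to -0.74 for RAD50 and -0.88 to -0.66 for XRS2. For MEI4 it was 0.14 to 0.28, and up to 0.49 after downsampling. With the replicate block 1027 features and 5 members were called, SPO11 at -1.17. Under it NPR3 and SKI2 were called lower (log2 fold change -0.53 and -0.52, edgeR adjusted p = 0.000292 and 0.00215). NRD1, beside RAD50, and PCH2, of the axis list, were called higher under it (0.45 and 0.91, edgeR adjusted p = 0.017 and 0.0373). The deviations of libraries with the same number correlated at 0.251, 0.0825 and 0.188 across 2551 features, not all above 0.1, and so the numbers were not taken as pairs, although each library correlated best with its own number, a hint from the data and not the design. The alternatives for neighbours, pathway and marker genes were chosen after seeing the data; there MEK1 (-0.0302 without wild-type replicate 1, up to 0.26 without *ime4∆* replicate 3) and NAM8 (-0.90 without *ime4∆* replicate 1, 0.12 without *ime4∆* replicate 3) changed direction with 1 library left out, and neither was called. RDH54 was not called after downsampling. REC104, REC107, SKI8 and MRE11 entered the fit only without the filter, where none was called (adjusted p = 0.562, 0.617, 0.617 and 0.642). Depth limits every statement on genes near 3 counts.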

Other observations

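Members of one protein complex were listed at very unlike levels, as with REC104 (5 counts over 6 libraries) beside REC102 (112 counts), and REC107 (1 count) beside REC114 (632 counts). The abundant gene nearest to REC104, RPL42B, had 260 counts, and RPL43B, nearest to REC107, had 14. The abundant genes nearest to SKI8 and MRE11 were RPS26A with 4 counts and RPS10B with 154.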
